A study of Mus musculus with 9 samples.

Results

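The transcripts of the translation initiation and elongation factors were examined in fully grown mouse oocytes. Members were the genes whose symbol starts with Eif followed by a digit from 1 to 6, or with Eef1 or Eef2. The eIF2 kinases (Eif2ak), Argonautes under their older names (Eif2c), the eIF4E-binding proteins (Eif4ebp) and the eIF4E transporter (Eif4enif) were left out. The rule took 56 of 24228 genes, and no measured value entered it.

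RNA was sequenced from C57BL/6 oocytes in 3 groups of 3 libraries. In MG oocytes a conditional allele of Mtor was deleted by Cre driven by the Gdf9 promoter. In MZ oocytes Cre was driven by the Zp3 promoter, and WT oocytes were wild type. Gdf9 and Zp3 are oocyte genes, and as background, Gdf9-Cre acts from the primordial follicle onward while Zp3-Cre acts once oocytes have begun to grow. Both drivers act in oocytes, so the somatic cells of these ovaries keep Mtor. The oocytes were at the germinal vesicle stage and came from large antral follicles, 46 h after the females received 5 IU of PMSG, a gonadotropin that stimulates follicle growth. The age is 6 months in the sample labels and 23 days in the series design, and this was not resolved. The number of oocytes in a library is not given, and nothing in the labels says that the libraries of a group came from separate animals. The p-values are therefore set by how these libraries vary, part of which may be technical variation.

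Initiation factors bring the small ribosomal subunit, the initiator tRNA and the capped mRNA together and select the start codon. Elongation factors then deliver aminoacyl-tRNAs and move the ribosome along the message. The kinase mTOR controls this machinery by phosphorylating the eIF4E-binding proteins and the S6 kinases, and it favours translation of messages that themselves encode ribosomal proteins and elongation factors. Fully grown oocytes transcribe little and live on stored messages, whose translation drives meiotic maturation. Only transcripts of the factors were measured here, not their proteins.

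Values are FPKM, the number of fragments scaled for transcript length and library size that the authors computed. They are relative to the library, so the amount of RNA per oocyte was not measured, and in bulk libraries fewer cells of a type and less RNA per cell cannot be told apart. Summed FPKM were 428329 to 554305 in MG, 657851 to 677618 in MZ and 584503 to 718684 in WT. The step between low values puts the libraries at about 421700 to 759900 fragments, at which 1 fragment in a 1 kb transcript is worth 1.32 to 2.37 FPKM. Differences between a few FPKM thus rest on few fragments, and intervals cover the spread between libraries only. All 14 oocyte markers examined were expressed, with summed FPKM of 17344 to 34900 in MG, 37622 to 39042 in MZ and 31342 to 38076 in WT. Of 16 granulosa and cumulus markers, 7 passed the low-value filter, with sums of 22.9 to 40.7 in MG, 24.0 to 28.3 in MZ and 21.6 to 34.8 in WT. The highest of them was Cyp19a1, the aromatase of granulosa cells, with a mean of 16.8 FPKM over the 9 libraries, while Foxl2, Lhcgr and Slc38a3 were at 0 in all 9. Of 8 blood and stroma markers, 5 passed, with sums of 33.8 to 44.4 in MG, 21.3 to 65.1 in MZ and 33.4 to 49.2 in WT. The highest was Dcn, with a mean of 15.2 FPKM, and Acta2 was at 0. What part these cells have in the results was not tested. The targeted gene, Mtor, had 5.25, 6.00 and 4.64 FPKM in MG, 6.55, 4.67 and 4.39 FPKM in MZ and 3.25, 3.33 and 2.95 FPKM in WT. All MG and MZ libraries stood above WT (limma adjusted p = 0.36 for MG and 0.803 for MZ). These values cover the whole gene and the labels name no deleted exon, so they do not check the deletion.

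Promoter sequences of members show the DNA before their RefSeq starts, which are not always the GENCODE starts used for the other coordinates here. RefSeq (GRCm38.p6) gave promoter windows for 44 of the 56 members. The 120 bases before the RefSeq start are printed for 5 of them, 5′ to 3′ on the strand of the gene. The windows of Eif1b and Eif4e lie wholly inside the GENCODE gene, and those of Eif1 and Eef1e1 partly inside it. Eif1 (+ strand, chr11:100319829-100319948), Eif1b (+ strand, chr9:120492486-120492605) and Eef1e1 (− strand, chr13:38659029-38659148) are among the 7 members that the authors' deposited table calls lower in MG than in MZ. Eif4e (+ strand, chr3:138527148-138527267, the one of its 2 start sites with more of the motifs) encodes the cap-binding protein, and Eef2 (+ strand, chr10:81176511-81176630) the translocation factor. Capitals mark the E-box CACGTG, which MYC and related factors bind, the CCAAT box and TATAAA.
Eif1: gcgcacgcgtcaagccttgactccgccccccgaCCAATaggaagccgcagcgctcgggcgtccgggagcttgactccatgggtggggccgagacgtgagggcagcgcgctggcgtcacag
Eif1b: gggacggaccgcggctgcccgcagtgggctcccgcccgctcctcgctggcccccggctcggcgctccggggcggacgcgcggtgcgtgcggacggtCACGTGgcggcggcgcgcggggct
Eef1e1: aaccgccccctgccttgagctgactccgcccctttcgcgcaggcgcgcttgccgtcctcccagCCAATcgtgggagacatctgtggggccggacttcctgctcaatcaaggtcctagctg
Eif4e: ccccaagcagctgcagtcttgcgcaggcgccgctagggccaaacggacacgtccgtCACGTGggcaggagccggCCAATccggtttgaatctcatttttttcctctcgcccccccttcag
Eef2: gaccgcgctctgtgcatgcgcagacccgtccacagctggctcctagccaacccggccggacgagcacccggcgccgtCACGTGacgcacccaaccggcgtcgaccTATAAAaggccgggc

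Distances are to the RefSeq start. The CACGTG of Eif1b begins 24 bases before the start, that of Eef2 43 bases and that of Eif4e 64 bases before it. The CCAAT box begins 87 bases before the start in Eif1, 57 in Eef1e1 and 46 in Eif4e, and TATAAA begins 15 bases before the start of Eef2. In the 250 bases before the start, CACGTG was present in 11 of 44 members (25%), against 6.86% of all 27025 genes in the table and 9.60% of the 8246 tested genes among them. CCAAT on either strand was present in 12 members (27.3%), against 37.5% of all genes and 41.3% of tested genes. TATAAA on either strand was present in 5 members (11.4%), against 14.3% of all genes and 8.46% of tested genes. CACGTG reads the same on both strands, and each motif was counted on its own, whatever its overlap with another. A match says only that these letters stand in the window, and no binding was measured.

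Member levels in WT oocytes differed widely, and some members were at 0. Eif1b, a close relative of Eif1, had the highest mean, 602 ± 241 FPKM (SD, n = 3). It was followed by Eif5a at 539 ± 70.3, Eif4e at 424 ± 56.4, Eif2b1 at 319 ± 30.8 and Eef1a1 at 261 ± 164 FPKM. Then came Eef1e1, Eif1, Eif1ax, Eif4a1 and Eif6, between 133 and 209.5 FPKM. Of the steps between neighbours in this top 10, only that from Eif4e to Eif2b1 and that from Eif4a1 to Eif6 were free of overlap between the WT libraries. In WT 11 members averaged at least 100 FPKM, 20 were between 10 and 100, 21 between 1 and 10, and 4 under 1. The median member had 10.5 FPKM in MG, 14.3 in MZ and 13.5 in WT, while the median tested gene had 7.17, 6.32 and 6.37 FPKM in these groups.

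**Figure D1:**
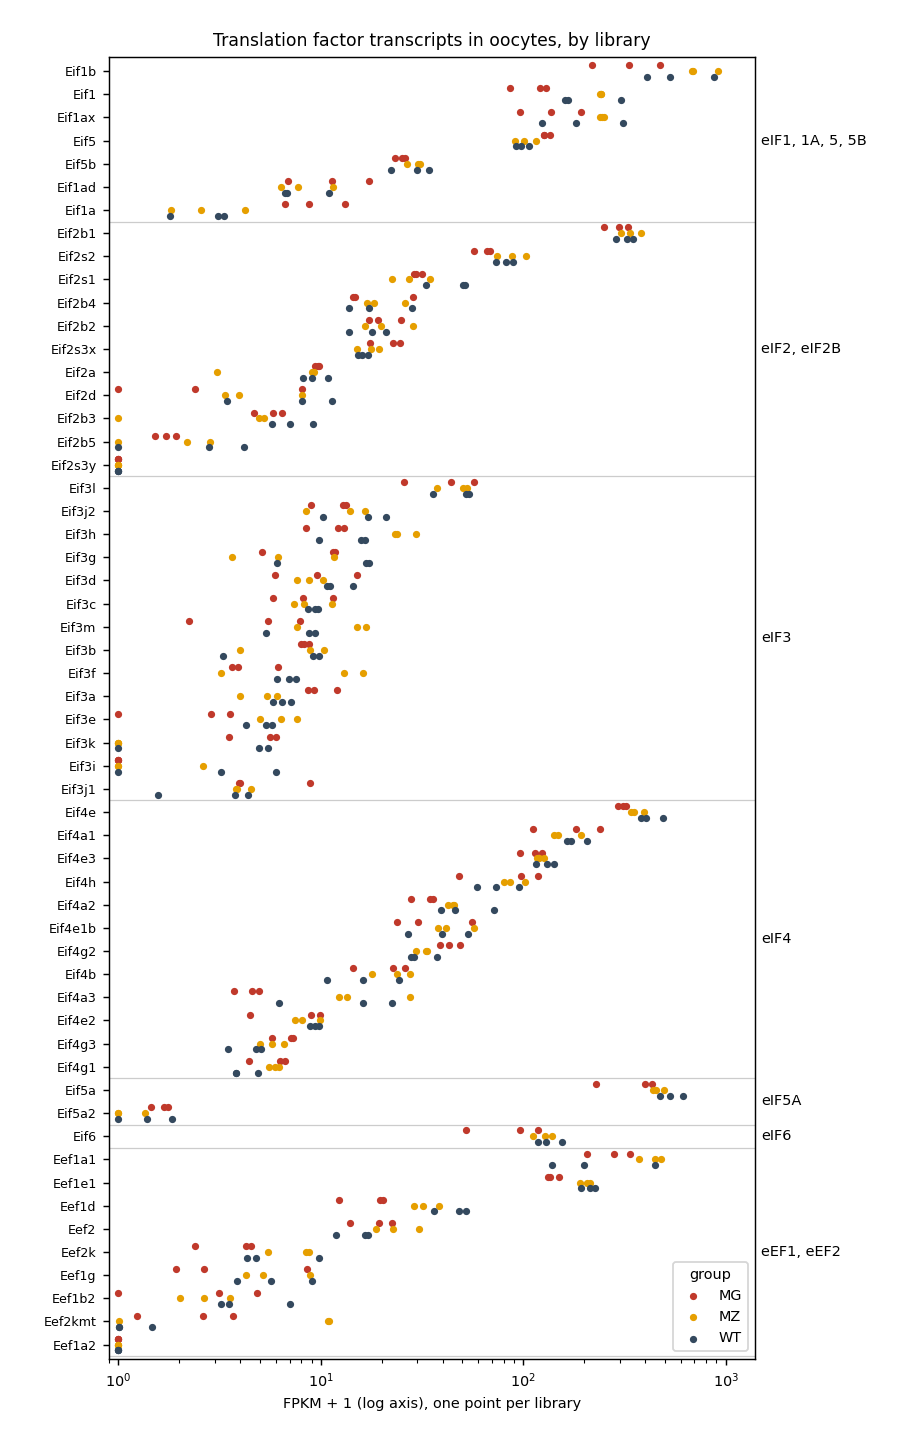
FPKM + 1 of all 56 members on a log axis, with 1 point per library (MG red, MZ orange, WT dark blue) and members ordered by role and by WT mean. Within each family 1 or a few members stand well above the rest, and Eef1a2 and Eif2s3y lie at 0 in all 9 libraries.

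Subunits of one complex differed widely in transcript level per length. Within eIF2B, the exchange factor that recharges eIF2 with GTP, Eif2b1 stood above the other subunits in every library. Eif2b1 averaged 291 FPKM in MG, 341 in MZ and 319 in WT, whereas the catalytic subunit Eif2b5 averaged 0.715, 1.01 and 1.66 FPKM. The Eif2b5 values stand for about 3 fragments in MG, 4 in MZ and 6 in WT, too few for a ratio. In the eEF1 complex, Eef1a1 averaged 274 FPKM in MG, 432 in MZ and 261 in WT, whereas its exchange factor subunit Eef1b2 averaged 1.99, 1.73 and 3.58 FPKM. The Eef1b2 values stand for about 6, 5 and 9 fragments in these groups, and MG 2 was at 0. Eif2s2 (eIF2 beta) led eIF2 and Eif3l led eIF3 in all 9 libraries.

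Of the 56 members, 53 passed the low-value filter, reaching 1 FPKM in 3 or more of the 9 libraries, and were tested. Eef1a2, the eEF1A isoform of muscle and neurons, and Eif2s3y, the Y-linked copy of eIF2 gamma, were at 0 in every library. Eif5a2 never reached 1 FPKM. Eif3i, in 3 libraries, and Eef2kmt and Eif2b5, in 4 each, stood just inside the filter.

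The first question is whether these transcripts differ in MG oocytes, where Mtor is deleted early. The members with the smallest p were Eef1d, a subunit of the eEF1A exchange factor, and Eif1a, the less abundant eIF1A gene. Eef1d averaged 16.4 ± 4.43 FPKM in MG and 44.5 ± 8.37 in WT, and Eif1a averaged 8.49 ± 3.32 FPKM in MG and 1.73 ± 0.819 in WT (SD, n = 3 each). Eef1e1, Eif1 and Eif4a3 came next, each lower in all MG libraries than in all WT libraries. With limma on log2(FPKM + 1), no member passed an adjusted p of 0.05 for MG against WT. Among all tested genes 0.343% passed. At an unadjusted p under 0.05, 12 members were lower in MG (22.6%, against 9.31% of all tested genes) and 3 were higher (5.66%, against 8.43%). Libraries of the groups did not overlap for 11 members lower in MG (20.8%, against 9.89%) and for 6 higher in MG (11.3%, against 11.6%). The log2 fold change was below 0 for 35 of 53 members (66.0%), against 47.0% of all tested genes, and its median was −0.31 over members and 0.04 over all tested genes. The authors' deposited table, made with Cuffdiff, calls 3 members at q under 0.05, all lower in MG. It calls 1.84% of all rows (1.36% lower in MG) and 4.13% of the tested genes.

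The size of this shift depends on the scaling and on single libraries. When every library was scaled to the same FPKM sum, the median of all tested genes moved to 0.36 and that of the members to 0.05, which is 0.31 below it. Fold changes were then below 0 for 24 of 53 members, and 35 of 53 were below the all-gene median. After quantile normalization the members' median was −0.16 and that of all tested genes 0.01, a gap of 0.17 where the deposited values give 0.35, and 32 of 53 members were below 0. Fold changes of single members for MG therefore also depend on the scaling, and values are given as deposited unless a scaling is named. Those given with the same FPKM sum stand beside an all-gene median of 0.36 for MG against WT and 0.39 for MG against MZ. By library, the median member differed from the WT mean by −0.0018, −0.12 and −0.45 (log2) in MG 1, 2 and 3. MG 3 had the lowest FPKM sum and the lowest oocyte marker sum, but the highest estimated depth, about 759900 fragments. It was the lowest of the 9 libraries for 18 of the members. WT 3 was the lowest for 11, and the same count was not made over all tested genes. Without MG 3 the median for MG against WT was −0.17, and without WT 1 it was also −0.17. The part that these library differences have in the result was not tested.

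**Figure D2:**
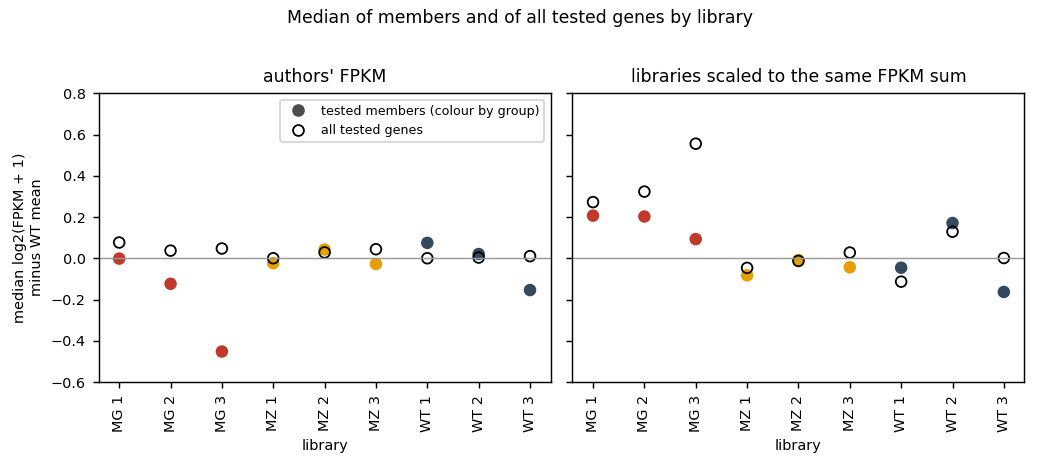
Median over the 53 tested members (filled points) and over all tested genes (open points) of log2(FPKM + 1) minus the WT mean, by library, as deposited (left) and after scaling to the same FPKM sum (right). In MG 3 the members lie at −0.45 as deposited while all genes lie at 0.05, and after scaling the members lie at 0.09 while all genes lie at 0.56.

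For MZ against WT the members with the smallest p were Eif3h, a subunit of eIF3, and Eif2s1, the alpha subunit of eIF2. Eif3h averaged 24.5 ± 3.44 FPKM in MZ and 12.99 ± 3.69 in WT, and Eif2s1 averaged 27.2 ± 6.14 FPKM in MZ and 44.1 ± 10.3 in WT (SD, n = 3 each). No member passed by limma (0.037% of all tested genes did). At an unadjusted p under 0.05, 4 members were higher in MZ (7.55%, against 2.68%) and 3 lower (5.66%, against 3.62%). The libraries did not overlap for 3 members higher in MZ, against 5.67% of all tested genes, and for 2 lower, against 6.52%. In all, 7 members were under an unadjusted p of 0.05 (13.2%, against 6.3% of all tested genes), and 23 fold changes were below 0 (43.4%, against 48.9%). The median log2 fold change was 0.04 over members and 0.01 over all tested genes. The authors' deposited table calls 1 member at q under 0.05, Eef1a1, higher in MZ, against 0.351% of all rows and 0.787% of the tested genes. The comparisons of MG and of MZ with WT share the WT libraries.

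MG was also set against MZ directly. These groups differ in the Cre driver and with it in the stage of deletion, and the design cannot tell the driver and the stage apart. The smallest p belonged to Eif1, a start codon factor, with 111 ± 22.8 FPKM in MG and 240.3 ± 2.12 in MZ (SD, n = 3 each). Eif3h, Eif4a3, Eif1a and Eif3k followed, and of these Eif1a and Eif3k were higher in MG. No member passed by limma (0.130% of all tested genes did). At an unadjusted p under 0.05, 11 members were lower in MG (20.8%, against 9.32%) and 3 higher (5.66%, against 8.32%). With no overlap, 15 members were lower in MG (28.3%, against 12.3%), and 6 were higher (11.3%, against 12.8%). Fold changes were below 0 for 37 members (69.8%, against 46.7%). The median was −0.20 over members and 0.04 over all tested genes. With the same FPKM sum in every library it became 0.20 over members and 0.39 over all tested genes, with 20 members below 0 and 37 below the all-gene median. The authors' deposited table calls 7 members at q under 0.05, all lower in MG (12.5%, against 4.03% of all rows, 2.77% in this direction, and 9.05% of the tested genes).

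**Figure D3:**
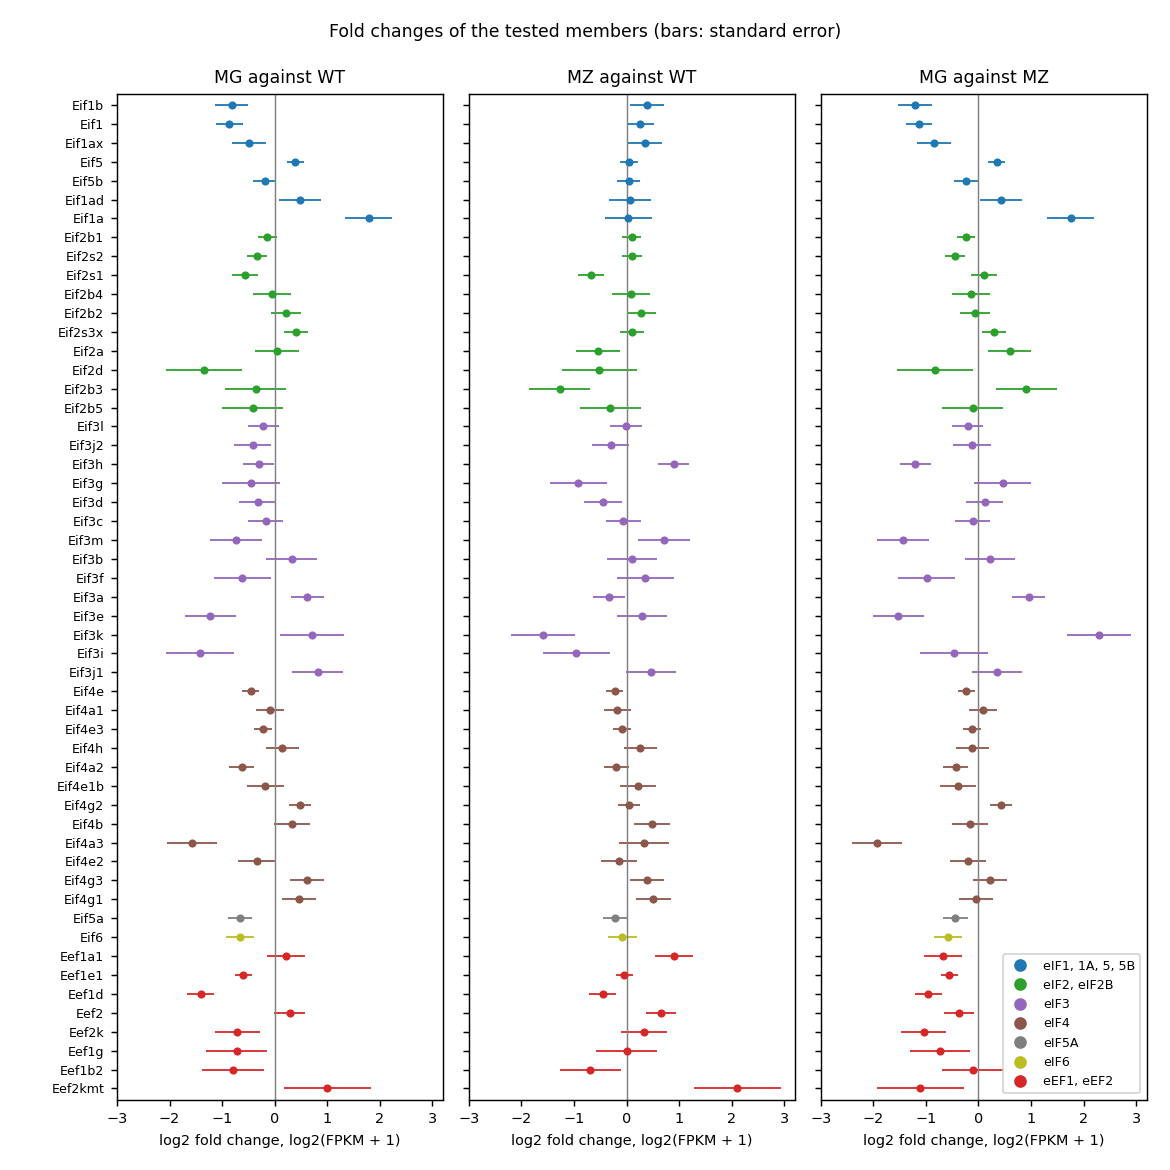
Log2 fold change on the log2(FPKM + 1) scale with its standard error for the 53 tested members, coloured by role, in 3 panels (MG over WT, MZ over WT, MG over MZ). Eef1d, Eif4a3, Eif1 and Eif1b lie left of 0 in both panels with MG as the first group, and Eif1a lies right of 0 in both.

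Among the start codon factors, eIF1 and eIF1A sit on the small subunit and hold it in a scanning state until a start codon is found. Eif1 (chr11:100319885-100322096) had 128, 119 and 85.0 FPKM in MG, 240.3, 242 and 238 FPKM in MZ and 302, 166 and 159 FPKM in WT. Every MG library was below every other library, and the 3 MZ libraries lay close together. The fold change was −1.13 for MG against MZ (SE 0.25, adjusted p = 0.0803) and −0.87 for MG against WT (SE 0.25, adjusted p = 0.135), by limma with Benjamini-Hochberg adjustment. Neither passed, and without WT 1, the highest WT library, the fold change against WT was −0.57. With the same FPKM sum it was −0.48 against WT and −0.70 against MZ. For MG against MZ it passed in 3 of 19 alternatives, and its adjusted p ran from 0.0228 to 0.239 over them.

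Its relative Eif1b (chr9:120492232-120495330) showed the same order of group means. It had 472, 330.5 and 218 FPKM in MG, 918, 677 and 685 in MZ and 871, 405 and 530.0 in WT. MG lay below MZ with no overlap, and MG 1 overlapped WT 2. The fold change was −1.21 for MG against MZ (SE 0.32, limma adjusted p = 0.0919) and −0.82 for MG against WT (SE 0.32, limma adjusted p = 0.224). With the same FPKM sum these were −0.78 and −0.43, and after quantile normalization −0.67 and −0.32. The 2 genes kept a like proportion to each other, Eif1b over Eif1 being 3.00 ± 0.60 in MG, 3.16 ± 0.57 in MZ and 2.89 ± 0.45 in WT (SD, n = 3 each). For MG against WT the authors' deposited table gives q = 0.00995 for Eif1 and q = 0.0159 for Eif1b. For MG against MZ it gives q = 0.000639 for each. WT 1 was the highest WT library for both genes. GENCODE lists 3 pseudogenes of Eif1, with which reads could be shared.

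The eIF1A genes had fold changes of opposite sign for MG against WT, −0.49 for Eif1ax (SE 0.33, limma adjusted p = 0.475) and 1.79 for Eif1a. For Eif1ax it was −0.10 with the same FPKM sum and −0.17 after quantile normalization. Eif1ax (chrX:159372178-159389928), the X-linked gene, had 192, 137 and 94.9 FPKM in MG, 251, 238 and 244 in MZ and 312, 180.2 and 122.7 in WT. Its autosomal paralogue Eif1a (chr18:46597701-46616456) had 12.1, 5.63 and 7.70 FPKM in MG, 0.812, 1.56 and 3.23 in MZ and 2.10, 2.30 and 0.795 in WT. All MG libraries exceeded all others for Eif1a, while for Eif1ax MG was below MZ and overlapped WT. For Eif1a the SE was 0.45 against WT (limma adjusted p = 0.106), and the fold change was 1.76 against MZ (SE 0.45, limma adjusted p = 0.0869). For Eif1ax in MG against MZ the fold change was −0.84 (SE 0.33, limma adjusted p = 0.204). It was −0.41 with the same FPKM sum and −0.50 after quantile normalization. The authors' deposited table gives q = 0.00308 for Eif1ax in this comparison. The Eif1a levels stand for about 40 fragments in MG, 9 in MZ and 7 in WT over the 3 libraries of each group.

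A share within a family does not change when a library is multiplied by a single factor, but it can change under quantile normalization. Eif1a made up 5.95%, 3.95% and 7.51% of eIF1A FPKM in MG, 0.323%, 0.652% and 1.30% in MZ, and 0.670%, 1.26% and 0.643% in WT. The 3 MG shares were thus the highest of the 9. The exact two-sided permutation test gave p = 0.1 for MG against WT and for MG against MZ, the smallest that 3 against 3 libraries allow. After adjustment over 60 share comparisons this was 0.5. Eif1ax made up the rest, at least 92.5% in each library.

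**Figure D4:**
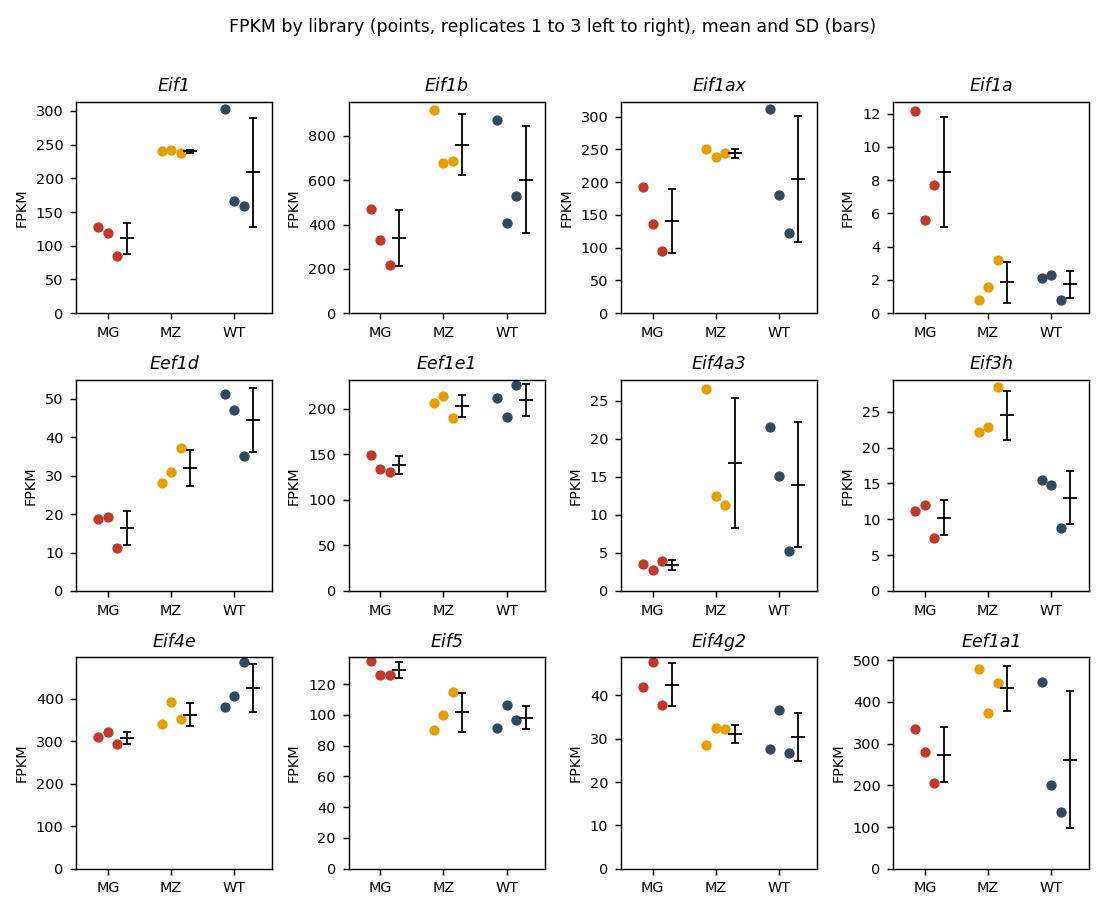
FPKM of 12 members by library (points, replicates 1 to 3 from left to right) with the group mean and SD beside them, each axis from 0. For Eif1, Eef1e1 and Eif3h every MG library lies below every MZ library, and for Eif1a every MG library lies above all others.

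Eif5, the GTPase activator of eIF2, had 135, 126 and 126 FPKM in MG, 90.2, 99.7 and 115 in MZ and 91.4, 106 and 96.5 in WT. MG lay above both other groups with no overlap, at a fold change of 0.39 against WT (SE 0.17, limma adjusted p = 0.252) that was 0.78 with the same FPKM sum. Eif5b, the subunit-joining GTPase, had 24.3, 25.0 and 22.2 FPKM in MG and 28.8, 33.3 and 21.2 in WT, which overlap. Eif1ad, a gene with an eIF1A domain, had 16.3, 10.4 and 5.91 FPKM in MG and 5.82, 10.0 and 5.66 in WT, which also overlap. Of the 7 members of this role, none passed in any comparison, and for MZ against WT all 7 fold changes lay between 0.03 and 0.39.

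In the ternary complex, eIF2 carries the initiator tRNA, and its alpha subunit is where stress kinases act. Eif2s1, which encodes that subunit, had 27.7, 30.5 and 28.6 FPKM in MG, 33.7, 26.3 and 21.6 in MZ and 32.2, 50.6 and 49.5 in WT. MG was below WT without overlap (log2 fold change −0.56, SE 0.24, adjusted p = 0.262 by limma, and a fold change of −0.18 with the same FPKM sum), and MZ overlapped WT (log2 fold change −0.67, SE 0.24, adjusted p = 0.743 by limma). Eif2s2 had 67.7, 65.4 and 56.3 FPKM in MG, 86.7, 73.1 and 102 in MZ and 87.9, 81.2 and 72.0 in WT, lower in all MG libraries, though its fold change against WT was −0.34 as deposited and 0.04 with the same FPKM sum. Eif2s3x, the X-linked eIF2 gamma, had 16.5, 23.5 and 21.7 FPKM in MG, against 14.2, 15.0 and 16.2 in WT, higher in all MG libraries, at 0.40 as deposited and 0.77 with the same FPKM sum. As deposited, 2 subunits of eIF2 were thus lower and 1 higher in MG than in WT, none of them past the threshold. Of 10 tested members of eIF2, eIF2B, Eif2a and Eif2d, 7 were lower in MG than in WT, with a median of −0.24 (4 of 10 and 0.15 with the same FPKM sum, and 7 of 10 and −0.12 after quantile normalization). With the same FPKM sum 7 of 10 were below the all-gene median.

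Eif2b1 (chr5:124570213-124579131), the alpha subunit of eIF2B, had 329, 295 and 249 FPKM in MG, 305, 382 and 337 in MZ and 323, 286 and 347 in WT. All 3 groups overlapped, and the 95% interval of the log2 fold change was −0.52 to 0.25 for MG against WT and −0.29 to 0.48 for MZ against WT. Eif2b2, Eif2b3 and Eif2b4 averaged 16.6, 6.29 and 18.8 FPKM in WT, far below it. Eif2b3, of the catalytic subcomplex of eIF2B, had 0, 4.25 and 3.96 FPKM in MZ, below WT at 6.06, 4.70 and 8.11 (log2 fold change −1.27, SE 0.58, adjusted p = 0.785 by limma). Eif2a and Eif2d, which can carry initiator tRNA outside eIF2, averaged 8.61 ± 0.271 and 2.80 ± 3.73 FPKM in MG, 6.12 ± 3.499 and 4.12 ± 2.54 in MZ and 8.35 ± 1.37 and 6.61 ± 3.95 in WT.

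The eIF3 complex scaffolds initiation on the small subunit. Its 14 members ranged from 2.22 to 46.3 FPKM in WT, and 10 of 14 were lower in MG than in WT, with a median of −0.32. With the same FPKM sum it was 6 of 14 and 0.04, with 10 of 14 below the all-gene median. After quantile normalization it was 10 of 14 and −0.39. Eif3l, the most abundant, had 56.0, 43.2 and 24.7 FPKM in MG, 36.4, 49.2 and 51.8 in MZ and 34.9, 53.0 and 51.1 in WT, which overlap. Eif3h (chr15:51786558-51865523) had 11.2, 12.03 and 7.45 FPKM in MG, 22.2, 22.8 and 28.4 in MZ and 15.5, 14.8 and 8.75 in WT. Here MZ stood above both other groups and MG overlapped WT. The fold change was 0.89 for MZ against WT (SE 0.29, limma adjusted p = 0.671) and −1.20 for MG against MZ (SE 0.29, limma adjusted p = 0.0818). The authors' deposited table gives q = 0.0419 for it in MG against MZ.

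Some eIF3 subunits were at the edge of detection. Eif3k had 4.60, 5.02 and 2.52 FPKM in MG, was listed at 0 in all 3 MZ libraries and had 3.97, 0 and 4.48 in WT. WT 2 was also listed at 0, so no fold is given, and the limma adjusted p was 0.0919 for MG against MZ and 0.744 for MZ against WT. Eif3i was listed at 0 in all MG libraries and in 2 of 3 MZ libraries, and had 2.21, 0 and 4.99 FPKM in WT. Some values of 0 may be failed estimates, and subunits of one complex at such unequal levels are given here as listed. Eif3j1 and Eif3j2 are near-identical copies whose rows carry the same locus in the deposited table, so reads may be split between them. Eif3a and Eif3e, which fall outside the rule for named genes, also separated MG from MZ. Eif3a, the large scaffold subunit, had 7.67, 8.25 and 11.01 FPKM in MG and 3.00, 4.39 and 5.10 in MZ, and Eif3e had 0, 2.57 and 1.86 in MG and 6.65, 5.34 and 3.98 in MZ. Eif3a was higher and Eif3e lower in MG, with limma adjusted p = 0.144 and 0.135. Eif3b, Eif3c, Eif3d, Eif3f, Eif3g and Eif3m, the other subunits, overlapped between MG and WT, with fold changes from −0.73 (Eif3m) to 0.32 (Eif3b).

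eIF4F recognises the cap through eIF4E, bridges to the ribosome through eIF4G and unwinds the leader with eIF4A. Eif4e (chr3:138526179-138559696) had 309, 321 and 292 FPKM in MG, 341, 392.4 and 353 in MZ and 379, 405 and 487 in WT. MG lay below both other groups without overlap, and MZ overlapped WT. The fold change was −0.45 for MG against WT (SE 0.16, limma adjusted p = 0.184), but its sign was not kept by every scaling. It was −0.07 with the same FPKM sum in every library and 0.02 after quantile normalization. Relative to the all-gene median it was −0.42 with the same FPKM sum and 0.0073 after quantile normalization. The median of the 12 tested eIF4 members also turned its sign with the scaling. For MG against WT it was −0.13 as deposited, 0.25 with the same FPKM sum and 0.17 after quantile normalization. Relative to the all-gene median these were −0.18, −0.11 and 0.16, with 7, 7 and 4 of 12 members below that median.

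Among cap-binding paralogues Eif4e was the main one in each group. It made up 66.9 ± 3.66% of the family FPKM in MG, 67.7 ± 1.45% in MZ and 70.6 ± 3.33% in WT (SD, n = 3 each). Eif4e3, an atypical cap binder, made up 24.1 ± 3.52% in MG, 22.6 ± 1.81% in MZ and 21.6 ± 3.87% in WT. Eif4e1b, the form restricted mainly to oocytes, made up 7.62 ± 3.27% in MG, 8.27 ± 1.34% in MZ and 6.45 ± 1.71% in WT. Eif4e2, which represses translation, was under 2% in all 9 libraries. The exact permutation p was 0.2 or more for every share of this family in every comparison. Since 3 against 3 libraries cannot give less than 0.1, this does not show that the shares are alike.

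In the helicase family, Eif4a3 (chr11:119288363-119300089) encodes the core of the exon junction complex rather than an initiation helicase. It had 3.56, 2.74 and 3.96 FPKM in MG, 26.6, 12.5 and 11.3 in MZ and 21.6, 15.1 and 5.23 in WT. MG lay below both other groups, at −1.58 against WT (SE 0.48, limma adjusted p = 0.136) and −1.92 against MZ (SE 0.48, limma adjusted p = 0.0844). WT 3, at 5.23 FPKM, was close to the MG libraries. As a share of eIF4A FPKM it was 1.32%, 1.25% and 2.68% in MG, 12.5%, 5.11% and 5.59% in MZ and 8.16%, 6.78% and 2.11% in WT. MG and MZ were apart (exact permutation p = 0.1), while MG 3 exceeded WT 3 (exact permutation p = 0.2 for MG against WT).

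Eif4a1, the main initiation helicase, had 238, 181 and 110.1 FPKM in MG, 141, 191 and 148 in MZ and 172, 163 and 205 in WT, and MG libraries spanned the other groups. Eif4a2 had 26.9, 34.9 and 33.7 FPKM in MG, 44.2, 41.5 and 43.8 in MZ and 70.9, 44.9 and 38.1 in WT. It was lowest in MG without overlap, though not past the threshold (log2 fold change −0.63, SE 0.24, adjusted p = 0.22 by limma, MG against WT, with a fold change of −0.25 at the same FPKM sum). Its locus also holds the small nucleolar RNA genes Snora81 and Snord2 and overlaps Rfc4, so reads cannot be fully told apart. Loci of other members overlap further genes as well, among them Eif5 (Snora28), Eef2 (Snord37), Eif4g1 (Snord66), Eif4e (Mir1956) and Eif5b (Rev1). The helicase cofactors Eif4b and Eif4h averaged 20.003 ± 5.89 and 87.1 ± 36.3 FPKM in MG, 22.1 ± 4.82 and 88.4 ± 11.1 in MZ and 16.1 ± 6.83 and 74.8 ± 18.1 in WT, and the groups overlapped.

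The scaffold genes had higher means in MG than in WT. Eif4g2 (DAP5), which lacks the eIF4E-binding part, had 41.9, 47.6 and 37.7 FPKM in MG, 28.6, 32.5 and 32.1 in MZ and 27.7, 36.7 and 26.8 in WT. MG stood above both other groups with no overlap (log2 fold change 0.48, SE 0.21, adjusted p = 0.262 by limma, MG against WT, with a fold change of 0.86 at the same FPKM sum). Eif4g3 had 6.12, 4.74 and 6.27 FPKM in MG and 4.05, 3.77 and 2.48 in WT, and Eif4g1, the main scaffold of somatic cells, had 5.29, 5.67 and 3.43 FPKM in MG and 2.82, 3.87 and 2.80 in WT. In MZ Eif4g1 had 4.92, 5.24 and 4.55 FPKM, above all WT libraries. It made up 8.97 ± 1.51% of eIF4G FPKM in MG, 12.1 ± 0.85% in MZ and 8.54 ± 0.34% in WT. Both MZ against WT and MG against MZ gave the smallest exact permutation p, 0.1, and 0.5 after adjustment over the 60 comparisons.

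**Figure D5:**
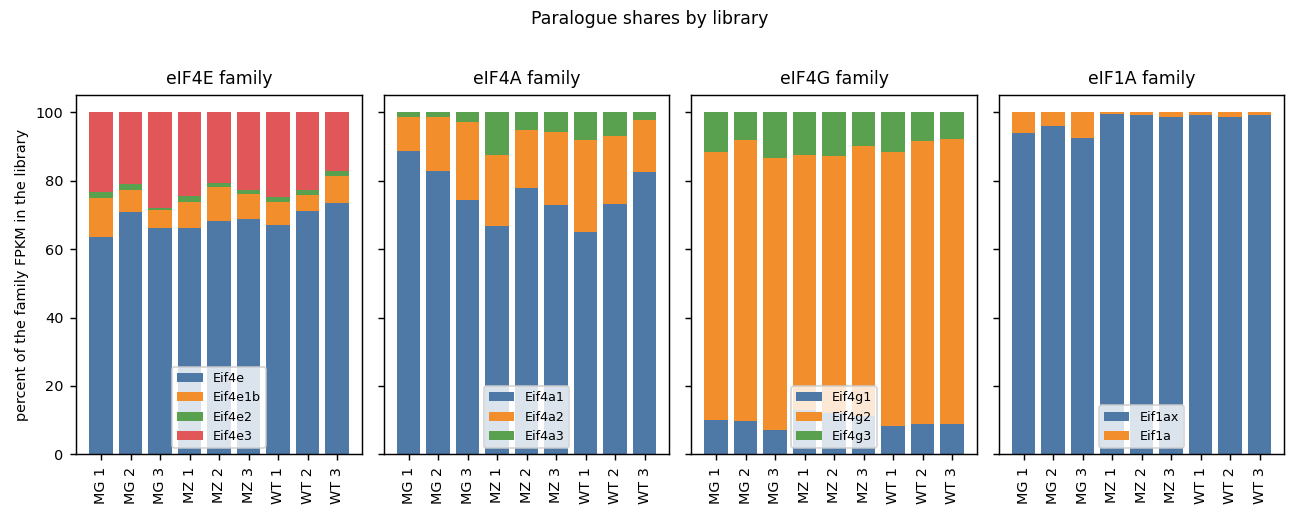
Share of the family FPKM held by each paralogue in each library, for the eIF4E, eIF4A, eIF4G and eIF1A families, as stacked bars that sum to 100 percent. Eif1a takes 3.95% to 7.51% of eIF1A in MG and at most 1.30% in MZ and WT libraries.

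Eif5a (chr11:69916714-69921958) encodes the hypusine-bearing factor that eases peptide bond formation at difficult sequences. It had 399, 429 and 228 FPKM in MG, 434, 497 and 453 in MZ and 532, 473 and 613 in WT. MG lay below both other groups, with MG 3 far below the other MG libraries. The fold change for MG against WT was −0.66 (SE 0.23, limma adjusted p = 0.186), but −0.27 with the same FPKM sum and −0.18 after quantile normalization. For MG against MZ it was −0.44 as deposited, −0.0070 with the same FPKM sum and 0.08 after quantile normalization, which turns its sign. It made up at least 99.7% of eIF5A FPKM in each library, Eif5a2 having 0.444, 0.688 and 0.749 FPKM in MG, 0, 0 and 0.355 in MZ and 0.385, 0.845 and 0 in WT. Eif6, which keeps large subunits from joining too early, had 117, 95.2 and 51.4 FPKM in MG and 154, 117 and 128 in WT, at a fold change of −0.66 (SE 0.27, limma adjusted p = 0.243) that was −0.28 with the same FPKM sum and −0.41 after quantile normalization.

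Among elongation genes, Eef1d had the smallest p of all members for MG against WT. Eef1d (chr15:75894205-75909556) encodes the delta subunit of the exchange factor that recharges eEF1A with GTP. It had 18.7, 19.2 and 11.3 FPKM in MG, 28.0, 30.9 and 37.2 in MZ and 51.2, 47.1 and 35.1 in WT. MG lay below both other groups, and MZ overlapped WT. The fold change was −1.41 against WT (SE 0.26, limma adjusted p = 0.0544) and −0.95 against MZ (SE 0.26, limma adjusted p = 0.0975). With the same FPKM sum these were −1.03 and −0.54. Its adjusted p against WT was 0.0412 with a filter of 5 FPKM and 0.0447 with a pseudocount of 5, and it was above 0.05 in the other 17 alternatives. The authors' deposited table gives q = 0.00189 for MG against WT and q = 0.0119 for MG against MZ.

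Eef1e1 (chr13:38644207-38659058) is named for its likeness to this family, but its product works in the complex of aminoacyl-tRNA synthetases. It had 149, 134 and 131 FPKM in MG, 206, 214 and 190.1 in MZ and 212, 191 and 226 in WT. MG lay below both other groups and its spread was small (log2 fold change −0.60, SE 0.16, adjusted p = 0.113 by limma, MG against WT). With the same FPKM sum the fold change was −0.21 (limma adjusted p = 0.448), and after quantile normalization it was −0.24 (limma adjusted p = 0.488). For MG against MZ it was −0.55 as deposited (SE 0.16, limma adjusted p = 0.108). With the same FPKM sum it was −0.12 (limma adjusted p = 0.655), and after quantile normalization −0.22 (limma adjusted p = 0.504). The authors' deposited table gives q = 0.0328 for MG against MZ.

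Eef1a1 (chr9:78478449-78489151), which delivers aminoacyl-tRNAs and is a classic target of mTOR at the level of translation, had its highest mean in MZ. It had 335, 281 and 205 FPKM in MG, 479.8, 372 and 445 in MZ and 447, 199.6 and 137 in WT. MZ was above MG without overlap, while WT 1 stood far above WT 2 and WT 3. The fold change was 0.90 for MZ against WT (SE 0.36, limma adjusted p = 0.744) and 0.22 for MG against WT (SE 0.36, limma adjusted p = 0.798). The second was 0.61 with the same FPKM sum. For MG against MZ the fold change was −0.68 (SE 0.36, limma adjusted p = 0.355). It was −0.25 with the same FPKM sum and −0.19 after quantile normalization. The authors' deposited table gives q = 0.0225 for MZ against WT and q = 0.006 for MG against MZ.

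The translocation factor Eef2 had 21.5, 18.4 and 12.9 FPKM in MG, 21.6, 17.7 and 29.6 in MZ and 16.1, 15.5 and 10.9 in WT. MZ lay above WT without overlap (log2 fold change 0.65, SE 0.29, adjusted p = 0.785 by limma), and MG overlapped WT. Its kinase gene Eef2k had 1.40, 3.24 and 3.53 FPKM in MG, 7.74, 7.42 and 4.46 in MZ and 8.77, 3.32 and 3.78 in WT. MG was below MZ without overlap (log2 fold change −1.04, SE 0.43, adjusted p = 0.231 by limma), and WT overlapped both. Its methyltransferase gene Eef2kmt had 2.68, 1.62 and 0.236 FPKM in MG, 0.00921, 9.82 and 9.91 in MZ and 0.00982, 0.00381 and 0.469 in WT, with MZ 1 near 0 and MZ 2 and MZ 3 the highest of all 9, and its locus overlaps Alg1. The exchange factor subunits Eef1b2 and Eef1g averaged 1.99 ± 1.92 and 3.38 ± 3.66 FPKM in MG, 1.73 ± 0.772 and 5.10 ± 2.41 in MZ and 3.58 ± 2.13 and 5.17 ± 2.64 in WT. Over the 8 tested Eef1 and Eef2 genes, which include Eef1e1, Eef2k and Eef2kmt, the median was −0.65 for MG against WT. It was −0.30 with the same FPKM sum and −0.56 after quantile normalization. For MZ against WT the median was 0.17. For MG against MZ it was −0.70, with all 8 below 0. With the same FPKM sum it was −0.34, with 6 of 8 below 0 and 8 of 8 below the all-gene median. After quantile normalization it was −0.67, again with 8 of 8 below 0.

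Summed over the 56 members, the factors took 0.612 ± 0.045% of the library FPKM in MG, 0.635 ± 0.007% in MZ and 0.611 ± 0.037% in WT (SD, n = 3 each). These shares overlapped (exact permutation p = 1 for MG against WT, 0.4 for MZ against WT and 0.6 for MG against MZ). Without the 20 most abundant genes in the sums they were 0.771 ± 0.076% in MG, 0.820 ± 0.005% in MZ and 0.794 ± 0.046% in WT.

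Regulators and partners of the factors outside the rule were followed with a list of 45 genes, of which 41 were tested. None passed in any comparison. For MG against WT 5 were higher (12.2%, against 8.43% of all tested genes) and 4 lower (9.76%, against 9.31%) at an unadjusted p under 0.05, shares near those of all tested genes. The median was 0.19, against 0.04 over all tested genes. Abce1, the ribosome recycling ATPase, had 8.28, 7.78 and 4.98 FPKM in MG and 1.54, 2.25 and 1.16 in WT (log2 fold change 1.59, SE 0.36, adjusted p = 0.0831 by limma). Ppp1r15b, which directs dephosphorylation of eIF2 alpha, had 11.4, 8.55 and 9.31 FPKM in MG and 3.42, 5.63 and 4.66 in WT, also higher in each MG library. Pabpc1l, the poly(A)-binding protein of oocytes, was lower, with 47.3, 32.4 and 27.5 FPKM in MG and 63.1, 59.6 and 50.1 in WT.

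For MG against MZ 5 were higher (12.2%, against 8.32%) and 4 lower (9.76%, against 9.32%), again near all tested genes. The median was 0.31, against 0.04 over all tested genes. Mknk1, a kinase of eIF4E, had 35.1, 24.3 and 16.0 FPKM in MG and 67.6, 47.5 and 61.1 in MZ (log2 fold change −1.24, SE 0.30, adjusted p = 0.0818 by limma). Gspt2, a release factor, had 94.3, 109.6 and 108 FPKM in MG and 171, 145 and 156 in MZ. Both were lower in every MG library, as was Pabpc1l. For MZ against WT 1 gene had an unadjusted p under 0.05 (2.44%, lower in MZ, against 3.62%), Dph5 of the diphthamide pathway that modifies eEF2, with 0, 0 and 2.61 FPKM in MZ and 1.42, 4.65 and 9.64 in WT. Eif4ebp2 and Mcts2 came next in p.

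The eIF4E-binding proteins, the direct mTOR substrates in this pathway, were scarce as transcripts. Eif4ebp1 had 9.18, 0 and 3.38 FPKM in MG, 3.02, 1.95 and 2.43 in MZ and 5.29, 5.75 and 5.98 in WT. Eif4ebp2 had 0, 3.25 and 3.13 in MG, 2.80, 2.70 and 4.47 in MZ and 1.21, 1.33 and 0 in WT. MZ was below WT without overlap for Eif4ebp1 (log2 fold change −0.96, SE 0.67, adjusted p = 0.854 by limma) and above WT without overlap for Eif4ebp2 (log2 fold change 1.30, SE 0.60, adjusted p = 0.785 by limma), while MG overlapped both groups for each. Within the family, Eif4ebp1 held 38.5 ± 39.5% of the FPKM in MG, 37.9 ± 3.55% in MZ and 80.9 ± 19.4% in WT (SD, n = 3 each). Eif4ebp2 held 32.4 ± 31.7% in MG, 52.3 ± 16.2% in MZ and 10.9 ± 9.74% in WT. The third member, Eif4ebp3, held 29.1 ± 7.82% in MG, 9.81 ± 17.0% in MZ and 8.19 ± 14.2% in WT. For the Eif4ebp1 and Eif4ebp2 shares in MZ against WT the exact permutation p was 0.1, the smallest that the design allows. After adjustment over the 60 comparisons it was 0.5. For MG against WT the exact permutation p was 0.2 for Eif4ebp1, 0.4 for Eif4ebp2 and 0.2 for Eif4ebp3. At these levels a gene is seen through a few fragments.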

How the data were processed

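Oocyte RNA went through Smart-seq2 amplification and the NEBNext Ultra library kit, per the labels' protocols. Reads were paired, 150 bp each. The authors aligned them to mm10 with TopHat2 2.0.13, computed FPKM with Cufflinks 2.2.1 and compared groups with Cuffdiff, per the submitters' processing notes. The deposited table holds the authors' FPKM per gene and library, and the authors' p-values and q-values per pair of groups. How strand was treated is not given.

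Of 24255 rows, 27 with date-like symbols were left out. The 10801 genes that reached 1 FPKM in 3 or more of 9 libraries were fitted as log2(FPKM + 1) with limma 3.58.1 in R 4.3.3 (eBayes with trend, all 9 libraries, 6 residual degrees of freedom). P-values are two-sided with Benjamini-Hochberg adjustment within each contrast, at a threshold of 0.05. Fold changes on this scale understate those of low genes. The depth was estimated from the steps of low FPKM in 2220 genes with 1 transcript of at least 1500 bp, and fragment numbers are approximate, since reads carried no molecular identifiers. Exact permutation tests were used for shares. Coordinates are from GENCODE M21 (GRCm38), where all 56 members matched. The members and gene lists were chosen with earlier results of these data known. Named by rule were the 5 members with the smallest p in each contrast, the 10 highest in WT, the paralogue families (eIF4E, eIF4A, eIF4G, eIF5A, eIF1A, eEF1A), members that the authors' table calls, members at 0 in a whole group, and those at the edge of the filter. Other members named with values were chosen after their values were seen. Of the regulators and partners, the 3 with the smallest p in each contrast were named by rule, and Eif4ebp1 and Eif4ebp3 were added. Alternatives covered the pseudocount, filter, scaling, variance trend, the groups in the fit, a replicate block and leaving out each library.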

Additional observations from a re-analysis of the deposited data

How the results depend on the processing

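Among the alternative values for counts, medians and shares, 10 moved, and 230 kept their call or stayed within the spread between libraries. For MG against WT, 1 member (Eef1d) passed with a pseudocount of 5 and 1 (Eef1d) with a filter of 5 FPKM in 3 libraries, where 53 and 41 of all tested genes passed, against 37 as reported. It was 0 in every leave-one-out fit. With the same FPKM sum in each library, the members' median became 0.051 for MG against WT and 0.20 for MG against MZ. The median of all tested genes then became 0.36 and 0.39. For MZ against WT the median ran from −0.039 (without WT 3) to 0.10 (without WT 2) when single libraries were left out. For MG against MZ, 14 of all tested genes passed as reported. When only those groups were fitted 1 member (Eif1) passed, among 73 of all genes. When single libraries were left out 0 to 1 passed, Eif1b without MG 1 and Eif1 without WT 1, and these fits called 210 and 213 of all 10801 genes, against 0 to 9 without any other library. The cause of these moves was not tested, beyond the smaller number of libraries in such fits.

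Deviations of same-numbered libraries from their group means correlated between −0.0702 and 0.0731, and those of other pairs between −0.114 and 0.0817. No pairing by replicate number was seen, but with 3 libraries a group this cannot show that the libraries are unpaired. With the replicate number as a block, 2 members passed for MG against MZ (Eif1 and Eif1b), among 159 of all tested genes, and 0 for the other contrasts. The main limits are the depth, at which members under about 5 FPKM rest on few fragments, the 3 libraries a group, which cannot give an exact p below 0.1, and the FPKM scaling, whose choice moves MG against both other groups.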
